A study of Mus musculus with 12 samples.

Results

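The carboxylesterase genes Ces1b, Ces1c, Ces1d, Ces1e, Ces1f, Ces1g, Ces2a, Ces2c, Ces3a and Ces3b were followed in sorted mouse hepatocytes. These 10 genes were found by matching the Ensembl identifiers of the deposited table to mouse symbols, out of 54839 features in all, and all 10 passed the filter on low counts. Their identifiers are ENSMUSG00000078964 for Ces1b, ENSMUSG00000057400 for Ces1c, ENSMUSG00000056973 for Ces1d, ENSMUSG00000061959 for Ces1e, ENSMUSG00000031725 for Ces1f, ENSMUSG00000057074 for Ces1g, ENSMUSG00000055730 for Ces2a, ENSMUSG00000061825 for Ces2c, ENSMUSG00000069922 for Ces3a and ENSMUSG00000062181 for Ces3b. The libraries are polyA RNA-seq of liver cells from male p16-Tom mice on a C57BL/6 background, which are heterozygous for a tamoxifen-dependent Cre recombinase driven by p16Ink4a and a Cre-dependent tdTomato reporter. Every group received tamoxifen, and the ages of the mice are not given in the sources used here. Live cells with (Tom+) or without (Tom-) red fluorescence were sorted from mice injected repeatedly with corn oil (the vehicle) or with the liver toxicant CCl4, which damages mainly the pericentral hepatocytes. This gave the groups Tom- oil, Tom+ oil, Tom- CCl4 and Tom+ CCl4, with 3 libraries each. The Cre is not restricted to hepatocytes, so the hepatocyte identity rests on the isolation, which pelleted hepatocytes by low-speed centrifugation, and on the sort. The red label marks cells in which p16Ink4a was active when tamoxifen was given.

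Carboxylesterases hydrolyse ester bonds in drugs, toxicants and lipids, and the liver is their main site of expression. In the mouse they are encoded by runs of tandemly duplicated genes, and most of the products are retained in the lumen of the endoplasmic reticulum, where some of them act on stored triglyceride that supplies lipid for very-low-density lipoprotein (VLDL). The active site is a serine within a glycine-any-serine-any-glycine motif that is shared across serine hydrolases. The 6 Ces1 members lie within one stretch on the minus strand of chromosome 8 (GRCm38, the assembly called mm10), from Ces1b at chr8:93056728-93080017 to Ces1g at chr8:93302369-93337308, with Ces1c (chr8:93099015-93131283), Ces1d (chr8:93166068-93197838), Ces1e (chr8:93201218-93229619) and Ces1f (chr8:93256236-93279747) between them. The 2 Ces2 and 2 Ces3 members lie farther along the chromosome on the plus strand, namely Ces2a (chr8:104734003-104741634), Ces2c (chr8:104847068-104854483), Ces3a (chr8:105048601-105058413) and Ces3b (chr8:105083753-105093929).

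Because the genes arose by duplication, a read can match more than one of them. The coding sequences of Ces3a and Ces3b were 95.3% identical, those of Ces1b and Ces1c 89.0%, those of Ces2a and Ces2c 82.7% and those of Ces1d and Ces1g 82.2%, whereas members of different subfamilies were 58.3% to 62.6% identical. The stretch of 69 coding bases around the active-site serine is shown for the 3 pairs with the most similar coding sequences, since it shows how alike they are. It was taken from the GENCODE vM21 transcripts, runs 5′ to 3′ along the coding strand, and has the 5 codons of the motif in capitals.
Ces1b: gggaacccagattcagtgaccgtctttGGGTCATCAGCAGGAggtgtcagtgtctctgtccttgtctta
Ces1c: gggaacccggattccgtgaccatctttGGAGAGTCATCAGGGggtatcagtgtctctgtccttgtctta
Ces2a: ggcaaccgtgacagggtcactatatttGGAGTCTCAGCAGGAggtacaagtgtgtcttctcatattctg
Ces2c: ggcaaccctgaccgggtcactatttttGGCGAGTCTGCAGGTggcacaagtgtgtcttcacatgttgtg
Ces3a: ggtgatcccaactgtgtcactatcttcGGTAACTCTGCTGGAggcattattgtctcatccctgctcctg
Ces3b: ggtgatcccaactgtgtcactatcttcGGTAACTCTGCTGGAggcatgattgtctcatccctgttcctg
Between Ces3a and Ces3b 2 of the 69 bases differed, between Ces1b and Ces1c 10, and between Ces2a and Ces2c 12. The stretch lies in exon 5 of Ces2a (chr8:104737383-104737451) and of Ces2c (chr8:104850741-104850809). It spans exons 5 and 6 in the other 4 genes, at chr8:93069375-93071929 in Ces1b, chr8:93120367-93123162 in Ces1c, chr8:105051559-105051737 in Ces3a and chr8:105086649-105086827 in Ces3b.

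The share of a gene's transcript sequence that also occurs elsewhere was measured as the share of its distinct runs of 50 bases found in another annotated gene. It was 36.1% for Ces2c, 26.2% for Ces3b, 25.6% for Ces3a, 17.3% for Ces2a, 13.0% for Ces1c and 11.6% for Ces1b, and it was 2.97% or less for Ces1d, Ces1e, Ces1f and Ces1g. Ces2c shared 32.7% of its runs with the pseudogene Ces2d-ps and 16.1% with Gm8798, Ces2a shared 16.3% with Gm7208, and the runs of Ces3a and Ces3b were shared with each other. The counts were also examined for values that were not whole within 0.001, as arise when a read is divided between features. Such a value was found in 12 of the 12 libraries for Ces1c, Ces1g, Ces2c and Ces3b and in 10 for Ces1d and Ces3a. It was found in 9 for Ces1b, Ces1f and Ces2a and in 8 for Ces1e. These numbers did not follow the share of runs, which was 1.67% for Ces1g and 17.3% for Ces2a. Of all values above 0 in a library, 30.4% to 32.9% were not whole. The tally does not measure how many reads were divided. The table does not say how shared reads were divided, so the levels of Ces2c, Ces3a, Ces3b and Ces2a are the least certain of the 10. Gm7208 reached at most 1.10 CPM and Gm8798 at most 2.82 CPM (counts scaled to a common library size with TMM factors), while Ces2d-ps lay between 2.095 and 20.04 CPM.

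The 250 bases upstream of the start site are shown for Ces1b and Ces1c, the neighbouring pair that was higher with CCl4 in both fractions. They come from RefSeq (GRCm38.p6), in which 7 of the 10 members were matched and Ces1d, Ces1f and Ces3a were not. The sequence is at chr8:93080018-93080267 for Ces1b and chr8:93131284-93131533 for Ces1c, on the minus strand. Capitals mark TTGCNNAA, letters bound by C/EBP factors, and CCAAT, each on either strand.
Ces1b: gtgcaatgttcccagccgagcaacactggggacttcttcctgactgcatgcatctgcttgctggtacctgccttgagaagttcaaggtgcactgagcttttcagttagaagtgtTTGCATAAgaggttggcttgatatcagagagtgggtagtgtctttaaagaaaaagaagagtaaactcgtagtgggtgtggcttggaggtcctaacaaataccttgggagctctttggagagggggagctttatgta
Ces1c: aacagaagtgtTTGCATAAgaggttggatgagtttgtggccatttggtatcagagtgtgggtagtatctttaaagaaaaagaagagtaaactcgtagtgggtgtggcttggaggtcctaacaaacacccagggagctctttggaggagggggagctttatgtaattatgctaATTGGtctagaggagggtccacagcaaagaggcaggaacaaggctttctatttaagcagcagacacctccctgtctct
A local alignment matched 137 of 160 positions of the windows, with 58 identical bases in a row at most. The match began 144 bases before the start of Ces1b and 247 bases before that of Ces1c, and TTGCATAA lay near its beginning in both. TTGCNNAA was found on either strand in 3 of the 7 member windows and in 9.56% of the 32851 windows of all RefSeq starts. The 3 were Ces1b, Ces1c and Ces2a, and they are not independent, since Ces1b and Ces1c hold it within their aligned stretch. CCAAT was found in 5 of 7 and in 33.8% of all, TATAAA in 2 of 7 and 12.4%, AGGTCA in 1 of 7 and in 4607 of the 32851, and GTTAAT in 1 of 7 and 6.43%. These are matches of letters only.

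The libraries held 37568584 to 75331424 counts, and each member had at least 364 counts in every library, so that counting error was small beside the spread between libraries. The reporter feature went against the labels of a pair of oil libraries. It was at 1794 CPM in the library labelled Tom- oil replicate 1 and at 135 CPM in the library labelled Tom+ oil replicate 2, whereas the other Tom- libraries had 119.7 to 263 CPM and the other Tom+ libraries 1225 to 1546 CPM. Calls of the members that use the oil libraries are therefore given with and without both, as are the values and list counts that change without them. The measured hepatocyte markers (5 of 6 listed, among them Alb and Apoa1) summed to between 88240.0 and 133300.0 CPM in every library. Stellate cell markers (7 genes) summed to 6.72 to 22.3 CPM in the oil libraries and to 51.0 to 104 CPM in the CCl4 libraries. Endothelial markers (6 genes) summed to 82.3 to 154 CPM with oil, to 210.5 to 230.3 CPM in Tom- CCl4 and to 110.5 to 149 CPM in Tom+ CCl4. The 6 Kupffer and macrophage markers summed to 13.95 to 106 CPM with oil and to 43.7 to 118 CPM with CCl4. The bile duct markers Krt19 and Krt7 were at 0 in every oil library, the 5 cholangiocyte markers summed to at most 17.95 CPM, and the 4 lymphocyte markers to at most 4.41 CPM. In bulk RNA, fewer cells of a kind and less RNA per cell cannot be told apart.

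Levels of different genes were compared as TPM, counts scaled to gene length and library total. Ces1c, whose product is secreted into mouse plasma, stood first in every group, at 2529 ± 273 TPM (SD, n = 3) in Tom- oil, 2302 ± 299 in Tom+ oil, 4197 ± 143 in Tom- CCl4 and 4695 ± 161 in Tom+ CCl4. Ces2c stood last in every group, from 14.4 ± 8.97 TPM in Tom+ oil to 62.0 ± 23.0 TPM in Tom+ CCl4 (SD, n = 3). In oil the order was Ces1c, Ces3a, Ces1d, Ces1f, Ces1g, Ces2a, Ces3b, Ces1e, Ces1b, Ces2c in both fractions. With CCl4 Ces1d stood above Ces3a, and Ces3b had moved from the seventh to the ninth place and Ces1b from the ninth to the seventh. Neighbours in the order often overlapped. The library ranges of Ces1f and Ces1g, of Ces1g and Ces2a and of Ces3b and Ces1e overlapped in both oil groups, and those of Ces1d, Ces3a, Ces2a, Ces1g and Ces1f overlapped from each to the next in Tom- CCl4. The ranges of Ces1c and the next gene were apart in all 4 groups. Together the 10 genes made up 0.426% to 0.822% of all TPM of a library.

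**Figure D1:**
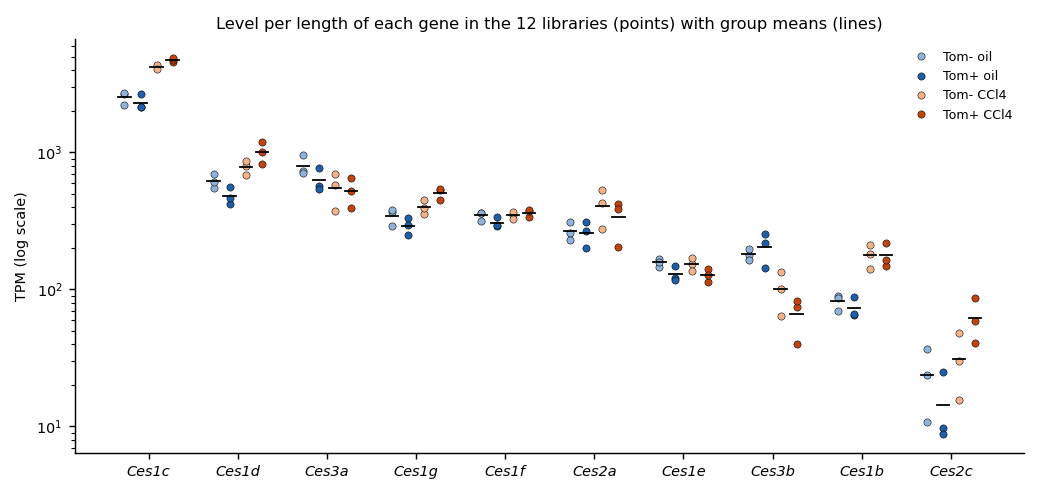
Level of each carboxylesterase gene in TPM (log axis), with 1 point per library coloured by group and a line at each group mean of 3 libraries, in order of the mean over groups. Ces1c lies above the other genes in every library, and Ces2c has the lowest mean in every group.

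Within the family the balance of the subfamilies differed between treatments. The Ces1 members held 74.4% to 79.2% of the TPM of the 10 genes in the 6 oil libraries and 83.1% to 89.0% in the 6 CCl4 libraries, so that the treatments did not overlap. The Ces3 members held 16.1% to 19.7% with oil and 5.26% to 11.3% with CCl4, again without overlap. The shares add up to the whole, so a larger Ces1 share leaves less for the others, and this is not a separate result. The summed TPM of the Ces3 members overlapped between treatments, at 685.7 to 1157 with oil and 432.8 to 794.8 with CCl4. The Ces2 members held 4.69% to 6.33% with oil and 3.30% to 7.39% with CCl4, which overlapped. Ces1c was the most abundant member of the Ces1 share in every group.

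**Figure D2:**
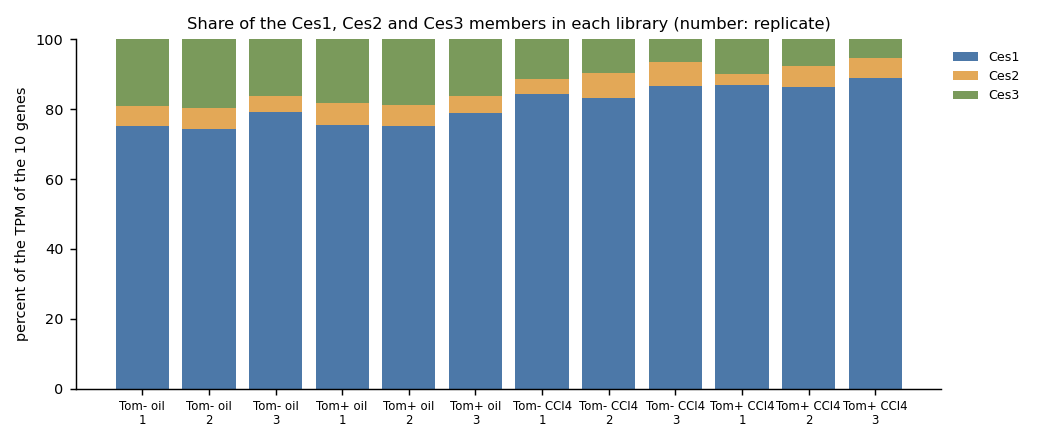
Share of the Ces1, Ces2 and Ces3 members in the summed TPM of the 10 genes (percent, stacked to 100) in each of the 12 libraries, named by group and replicate number. The Ces1 share lies between 74.4% and 79.2% in the oil libraries and between 83.1% and 89.0% in the CCl4 libraries.

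The comparison of CCl4 with oil asks how the injury relates to these genes in hepatocytes of the same fraction. Ces1b and Ces1c rose in both fractions, Ces1d rose in Tom+ cells, and Ces3b fell in Tom+ cells. In Tom- cells 2 of the 10 members rose past both thresholds (adjusted p under 0.05 and log2 fold change beyond 0.75), beside 6.33% of all 17121 genes tested, and none fell, beside 1.59%. In Tom+ cells 3 members rose, beside 2.9% of all genes, and 1 fell, beside 2.34%. The median log2 fold change of the members was 0.37 in Tom- and 0.45 in Tom+, where that of all tested genes was 0.00 in both. Values are in CPM in the following and adjusted p-values are from edgeR's quasi-likelihood test with Benjamini-Hochberg adjustment.

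**Figure D3:**
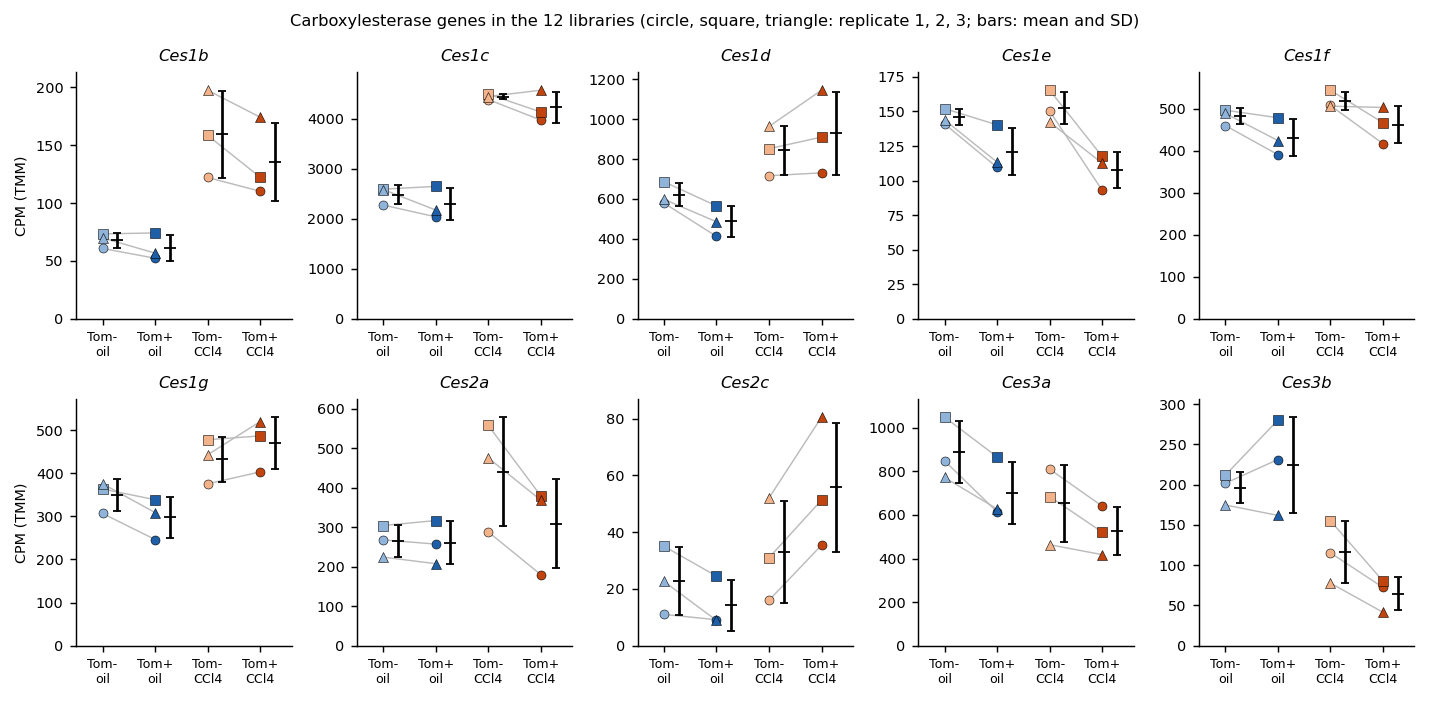
CPM of each gene in the 12 libraries, with 1 point per library, the shape giving the replicate number, grey lines joining Tom- and Tom+ libraries of the same number and bars giving the mean and SD of 3 libraries. For Ces1b, Ces1c and Ces1d the 6 CCl4 libraries lie above the 6 oil libraries, and for Ces3b they lie below.

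Ces1c, the plasma carboxylesterase, was at 2275, 2593 and 2586 CPM in the Tom- oil libraries (replicates 1, 2 and 3 in this order, as throughout) and at 4386, 4494 and 4447 CPM in Tom- CCl4. In Tom+ it was at 2039, 2648 and 2175 CPM with oil and at 3976, 4138 and 4573 CPM with CCl4. Every CCl4 library was thus well above every oil library. The log2 fold change was 0.84 ± 0.11 (SE) in Tom- (edgeR adjusted p = 5.8e-04) and 0.89 ± 0.11 in Tom+ (edgeR adjusted p = 3.8e-04). Without the library labelled Tom- oil replicate 1 and that labelled Tom+ oil replicate 2, the values were 0.78 (edgeR adjusted p = 0.0024) and 1.01 (edgeR adjusted p = 5.4e-04).

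Ces1b, the neighbour and closest relative of Ces1c, was at 60.7, 73.3 and 69.9 CPM in Tom- oil and at 122, 158 and 198 CPM in Tom- CCl4. In Tom+ it was at 52.3, 74.2 and 56.7 CPM with oil and at 110.2, 122 and 174 CPM with CCl4. The groups again did not overlap, although the CCl4 libraries were spread more widely than those of Ces1c. The log2 fold change was 1.23 ± 0.20 (SE) in Tom- (edgeR adjusted p = 0.0029) and 1.15 ± 0.20 in Tom+ (edgeR adjusted p = 0.0052). Without both doubted oil libraries it was 1.16 (edgeR adjusted p = 0.014) and 1.32 (edgeR adjusted p = 0.0095). The ratio of Ces1b to Ces1c does not depend on the scaling of a library, but it cannot tell shared reads from reads of either gene. Ces1b was at 3.04% to 3.34% of the TPM of Ces1c in the oil libraries and at 3.28% to 5.25% in the CCl4 libraries, and these ranges overlapped.

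Ces1d, also called triacylglycerol hydrolase, mobilises stored triglyceride for VLDL. It was at 579.9, 687 and 598 CPM in Tom- oil and at 716, 852 and 963 CPM in Tom- CCl4. In Tom+ it was at 413, 565 and 486 CPM with oil and at 731, 910.1 and 1145 CPM with CCl4. All CCl4 libraries were above all oil libraries. The log2 fold change in Tom+ was 0.93 ± 0.17 (SE, edgeR adjusted p = 0.0040), whereas in Tom- it was 0.44 ± 0.16 and did not pass (edgeR adjusted p = 0.084). Without both doubted oil libraries these were 1.05 (edgeR adjusted p = 0.0090) and 0.40 (edgeR adjusted p = 0.20).

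Ces1g, also called esterase-x, is a lipid hydrolase whose loss raises blood lipids in mice. It was at 307, 363 and 376 CPM in Tom- oil, 375, 478 and 443 CPM in Tom- CCl4, 246, 338 and 309 CPM in Tom+ oil and 403, 486 and 519.6 CPM in Tom+ CCl4. The treatments did not overlap in Tom+ and overlapped narrowly in Tom-. In Tom+ the log2 fold change of 0.66 ± 0.14 (SE) had an edgeR adjusted p = 0.010, as had 4.91% of all genes in that direction at the adjusted p alone, but it lay inside the fold threshold. Without the library labelled Tom+ oil replicate 2 it was 0.76 (edgeR adjusted p = 0.014) and without Tom+ CCl4 replicate 1 it was 0.75 (edgeR adjusted p = 0.0091), so that it passed both thresholds in these fits, while without Tom+ oil replicate 1 it was 0.54 and passed neither (edgeR adjusted p = 0.052). In Tom- it was 0.31 ± 0.14 (edgeR adjusted p = 0.15), and 0.23 without both doubted oil libraries (edgeR adjusted p = 0.35).

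Ces1e and Ces1f showed the smallest differences between treatments. Ces1e, known as egasyn, holds beta-glucuronidase in the endoplasmic reticulum, and Ces1f is a further lipid hydrolase of that compartment. The log2 fold change of Ces1e was 0.07 ± 0.11 (SE) in Tom- and -0.17 ± 0.11 in Tom+ (edgeR adjusted p = 0.72 and 0.39). That of Ces1f was 0.11 ± 0.10 in Tom- and 0.10 ± 0.10 in Tom+ (edgeR adjusted p = 0.49 and 0.59). Without both doubted oil libraries Ces1e was at 0.05 and -0.04 and Ces1f at 0.08 and 0.19 in Tom- and Tom+, and none of these passed. Ces1f lay between 391 and 544 CPM in all 12 libraries, and in Tom- its 3 CCl4 libraries (506 to 544 CPM) were just above the 3 oil libraries (460.2 to 497 CPM).

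The Ces2 members hydrolyse drug and lipid esters in liver and gut. Ces2a was at 268, 305 and 225 CPM in Tom- oil, 288, 558 and 476 CPM in Tom- CCl4, 258, 317 and 208 CPM in Tom+ oil and 180.0, 379.7 and 369 CPM in Tom+ CCl4. The treatments overlapped in both fractions, with replicate 1 of each CCl4 group near or below the oil libraries. Its log2 fold change was 0.73 ± 0.31 (SE) in Tom- and 0.25 ± 0.31 in Tom+ (edgeR adjusted p = 0.14 and 0.69), and without both doubted oil libraries 0.74 and 0.42 (edgeR adjusted p = 0.27 and 0.61). Ces2c was at 11.02, 35.0 and 22.6 CPM in Tom- oil, 16.0, 31.0 and 52.0 CPM in Tom- CCl4, 9.14, 24.5 and 8.91 CPM in Tom+ oil and 35.4, 51.3 and 80.5 CPM in Tom+ CCl4. The treatments did not overlap in Tom+ and overlapped in Tom-. Its log2 fold change was 1.97 ± 0.63 (SE) in Tom+ and 0.53 ± 0.61 in Tom- (edgeR adjusted p = 0.091 and 0.60). Without both doubted oil libraries the Tom- value was 0.20 (edgeR adjusted p = 0.85). In Tom+ Ces2c passed with DESeq2 (1.97, adjusted p = 0.020), beside 3.51% of all genes called higher by it, and in edgeR without both doubted oil libraries (2.63, adjusted p = 0.046), beside 2.09%, and the adjusted p ranged from 0.020 to 0.29 over the alternatives.

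Ces3a and Ces3b encode closely similar liver carboxylesterases of the endoplasmic reticulum. Ces3b was at 202, 212 and 175 CPM in Tom- oil and at 115, 155 and 77.8 CPM in Tom- CCl4. In Tom+ it was at 231, 280.2 and 162 CPM with oil and at 72.5, 80.4 and 41.6 CPM with CCl4. All CCl4 libraries were below all oil libraries, and those of Tom+ CCl4 with replicate 3 of Tom- CCl4 were the lowest. In Tom+ Ces3b fell by 1.79 ± 0.31 (SE) on the log2 scale (edgeR adjusted p = 0.0065), and by 1.59 without both doubted oil libraries (edgeR adjusted p = 0.039). In Tom- the log2 fold change was -0.76 ± 0.30 and did not pass (edgeR adjusted p = 0.12), nor did it without both doubted oil libraries (-0.73, edgeR adjusted p = 0.23). Ces3a was at 849, 1049 and 772 CPM in Tom- oil, 810.3, 685 and 464 CPM in Tom- CCl4, 614, 866 and 627 CPM in Tom+ oil and 640.5, 521 and 418 CPM in Tom+ CCl4. The treatments overlapped in both fractions, with log2 fold changes of -0.45 ± 0.22 (SE) in Tom- and -0.42 ± 0.22 in Tom+ (edgeR adjusted p = 0.18 and 0.27), and without both doubted oil libraries -0.48 and -0.23 (edgeR adjusted p = 0.26 and 0.67).

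The pair shares many of its sequence runs, and a ratio cannot tell shared reads from reads of either gene. Ces3b was also set against Ces3a within each library. It was at 20.7% to 24.4% of the TPM of Ces3a in Tom- oil, 26.4% to 38.6% in Tom+ oil, 14.6% to 23.3% in Tom- CCl4 and 10.2% to 15.8% in Tom+ CCl4. In Tom+ the treatments did not overlap in this ratio, and in Tom- they did. Ces2c set against Ces2a was at 3.65% to 7.93% in Tom+ oil and at 13.9% to 22.4% in Tom+ CCl4, and at 4.22% to 11.8% and 5.70% to 11.2% in Tom- oil and Tom- CCl4. Ces2d-ps, the pseudogene with which Ces2c shares most runs, was at 24.9% to 45.4% of the TPM of Ces2c over the 12 libraries, and its range in Tom+ CCl4 (26.9% to 34.5%) overlapped that in Tom+ oil (31.8% to 42.3%).

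**Figure D4:**
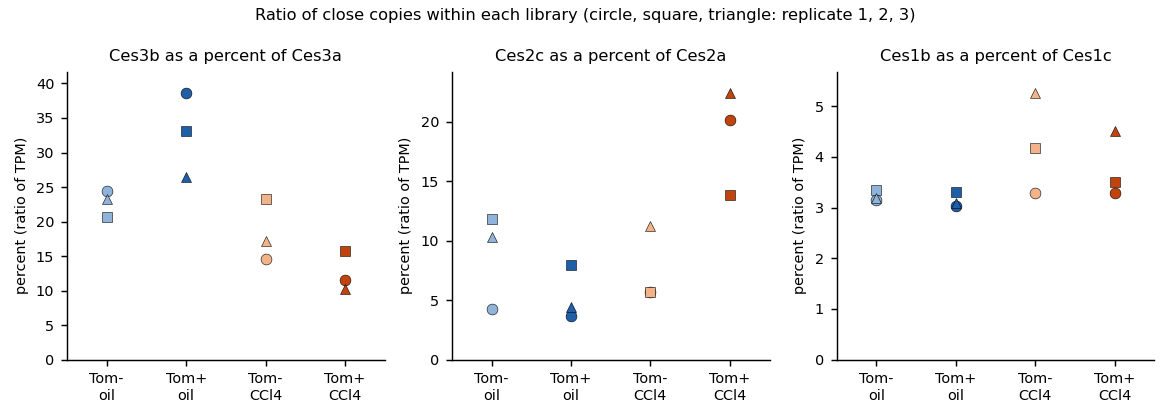
Ratio of close copies within each library (percent of TPM), with 1 point per library by group and the shape giving the replicate number. Ces3b was at 10.2% to 15.8% of Ces3a in Tom+ CCl4 and at 26.4% to 38.6% in Tom+ oil, whereas Ces1b stayed between 3.04% and 5.25% of Ces1c.

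Over both fractions, the 6 CCl4 libraries were all above the 6 oil libraries for 3 members (Ces1b, Ces1c and Ces1d), as for 4.16% of all genes tested, and all below them for 1 member (Ces3b), as for 3.49%. Markers of other cells moved in the same comparison. Of the 7 stellate cell markers 6 rose in Tom- and 5 in Tom+, and of the 6 endothelial markers 6 rose in Tom- and none in Tom+ (0 also at an unadjusted p under 0.05 and by DESeq2). Zonation genes moved with it as well. Of 8 zone 3 (pericentral) genes 4 rose in Tom+, led by Lgr5 (log2 fold change 3.21), Axin2 (2.99) and Rhbg (2.97), and in Tom- Oat fell by 2.60 on the log2 scale. Of 8 zone 1 (periportal) genes 5 fell in Tom+, led by Cyp2f2 (-2.36), Sds (-1.93) and Hal (-1.79), and 1 (Aldh1b1, 1.05) rose in Tom-. Leaving out both doubted oil libraries, 7 stellate and 5 endothelial markers rose in Tom- and 5 and 0 in Tom+, 6 zone 3 genes rose and 7 zone 1 genes fell in Tom+, and in Tom- 2 zone 3 genes fell and no zone 1 gene passed. The part of these cells or of zonation in the values of the carboxylesterases was not tested.

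The comparison of Tom+ with Tom- cells of CCl4-treated mice asks whether hepatocytes with a history of p16Ink4a expression differ in these genes. By edgeR none of the 10 members passed both thresholds in this comparison, beside 0.222% of all genes called higher and 1.74% called lower. At an unadjusted p under 0.05 there were 2 members (Ces1e and Ces3b), where 22.8% of all genes were, and DESeq2 called 0 members, with 0.391% of all genes higher and 2.9% lower. The median log2 fold change of the members was -0.20, where that of all genes was 0.00. Ces1e was lower at the adjusted p alone, as were 3.83% of all genes. It was at 150.3, 165 and 142 CPM in Tom- CCl4 and at 93.0, 118 and 113 CPM in Tom+ CCl4, without overlap. Its log2 fold change was -0.50 ± 0.11 (SE, edgeR adjusted p = 0.022), lower in 3 of 3 same-numbered pairs. The adjusted p rose to 0.12 without Tom- CCl4 replicate 2, to 0.091 without Tom+ CCl4 replicate 1 and to 0.053 without Tom+ CCl4 replicate 2. Gusb, which encodes the beta-glucuronidase bound by egasyn, had a log2 fold change of -0.22 (edgeR adjusted p = 0.18).

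The replicate numbers paired Tom- with Tom+ libraries, and with the number as a block 2 members passed both thresholds. Ces2c rose by 0.83 ± 0.19 on the log2 scale (SE, edgeR adjusted p = 0.021), beside 0.736% of all genes called higher in the blocked fit. Ces3b fell by 0.84 ± 0.09 (edgeR adjusted p = 7.8e-05), beside 3.25% called lower. Without the block their values were 0.75 ± 0.61 (edgeR adjusted p = 0.52) and -0.84 ± 0.30 (edgeR adjusted p = 0.13). Each of the 3 pairs went the same way, Ces2c from 16.0 to 35.4, from 31.0 to 51.3 and from 52.0 to 80.5 CPM and Ces3b from 115 to 72.5, from 155 to 80.4 and from 77.8 to 41.6 CPM. The libraries of a pair thus differed in one direction, while over all 3 pairs the ranges of the fractions overlapped for both genes. At the adjusted p alone 5 members were lower in the blocked fit, where 9.72% of all genes were. These were Ces3b, Ces1e (-0.51, edgeR adjusted p = 8.9e-04), Ces2a (-0.53, edgeR adjusted p = 3.4e-04), Ces3a (-0.29, edgeR adjusted p = 0.013) and Ces1b (-0.23, edgeR adjusted p = 0.047). Over the alternatives the adjusted p ranged from 5.8e-05 to 0.79 for Ces2c and from 4.3e-06 to 0.38 for Ces3b.

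Zonation genes differed in the same pairs. With the block 6 of the 8 zone 3 genes rose and 5 of the 8 zone 1 genes fell in Tom+ against Tom- with CCl4, and without it 0 and 3 did, the 3 being Cyp2f2 (-1.42, edgeR adjusted p = 0.037), Sds (-1.39, edgeR adjusted p = 0.0063) and Gls2 (-1.05, edgeR adjusted p = 0.015). At an unadjusted p under 0.05 there were 2 zone 3 genes, DESeq2 called 1, and 2 rose without the block when both doubted oil libraries were left out. Of the 6 endothelial markers 4 fell without the block and 5 with it. The part of zonation or of endothelial RNA in the values of Ces2c, Ces3b and the other members was not tested.

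In oil-treated mice none of the members passed both thresholds between the fractions by edgeR, beside 0% of all genes called higher and 0% called lower. At an unadjusted p under 0.05 there were 1 member (Ces1e, log2 fold change -0.27 ± 0.11) and 1198 of all genes, and DESeq2 called 0 members, with 7 higher and 10 lower over all genes. Ces1e was at 141.0, 152.1 and 143.9 CPM in Tom- oil and at 109.5, 140.3 and 113.3 CPM in Tom+ oil, narrowly without overlap, as with CCl4. Its interaction of fraction and treatment was -0.24 ± 0.16 (SE, edgeR adjusted p = 0.45). The log2 fold change was below 0 for 9 of the 10 members, with a median of -0.19, where that of all genes was 0.01. These libraries include both doubted ones, and without them the values ranged from -1.69 for Ces2c to 0.01 for Ces3b, with no member called. With the block 2 members were lower at the adjusted p alone, as were 0.45% of all genes. These were Ces1d (-0.36 ± 0.07, edgeR adjusted p = 0.040) and Ces3a (-0.35 ± 0.07, edgeR adjusted p = 0.047), each lower in 3 of 3 pairs by the labels. The reporter was at 1794 CPM in Tom- and 1546 CPM in Tom+ of pair 1, and at 156.7 and 135.2 CPM in pair 2. Only pair 3 (143 and 1225 CPM) differed in the reporter as labelled, so the pairs and the blocked fit in oil are weak evidence on the fractions. With the block and without the doubted libraries, a fit that was chosen after seeing the data and that leaves 1 complete oil pair, Ces2c was at -1.36 ± 0.18 (edgeR adjusted p = 0.0047) and the other members did not pass. Ces2c was at 9.14, 24.5 and 8.91 CPM in Tom+ oil and at 11.02, 35.0 and 22.6 CPM in Tom- oil, so that the fractions overlapped. Of the 8 zone 3 genes none passed in oil without the block and 3 were lower with it. The 3 were Lgr5 (-1.475, edgeR adjusted p = 0.033), Oat (-1.26, edgeR adjusted p = 5.1e-05) and Cyp2e1 (-1.21, edgeR adjusted p = 9.3e-05). The zone 3 median without the block was -1.09, where it was 1.38 with CCl4. No zone 1 gene passed in either fit (median 0.26, and -0.84 with CCl4). The part of zonation in these values was not tested.

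Whether the difference of the fractions was the same with CCl4 as with oil was tested as the interaction of fraction and treatment. This is the log2 difference of Tom+ and Tom- with CCl4 minus that with oil. Signs are kept, so an interaction does not mean a larger difference with CCl4. For Ces2c, for example, the differences without the block were 0.75 with CCl4 and -0.69 with oil. By edgeR none of the members passed both thresholds, beside 0.216% of all genes called higher and 0.958% called lower. At an unadjusted p under 0.05 there was 1 (Ces3b), where 18.6% of all genes were, and DESeq2 called 0 members, with 0.737% of all genes higher and 3.15% lower. Ces2c had an interaction of 1.45 ± 0.86 (SE, edgeR adjusted p = 0.41) and Ces3b of -1.04 ± 0.42 (edgeR adjusted p = 0.23). With the replicate block both passed, Ces2c at 1.53 ± 0.27 (edgeR adjusted p = 0.011), beside 1.28% of all genes called higher, and Ces3b at -1.005 ± 0.13 (edgeR adjusted p = 3.5e-04), beside 4.19% called lower. With the block and without the doubted oil libraries Ces2c was at 2.17 ± 0.20 (edgeR adjusted p = 4.6e-05) and passed, while Ces3b was at -0.72 ± 0.13 (edgeR adjusted p = 0.0080) and lay inside the fold threshold. Over the alternatives the adjusted p ranged from 4.6e-05 to 0.62 for Ces2c and from 3.5e-04 to 0.51 for Ces3b. At the adjusted p alone Ces1d (0.48, edgeR adjusted p = 0.0080), Ces1g (0.35, edgeR adjusted p = 0.033) and Ces2a (-0.50, edgeR adjusted p = 0.0078) also passed with the block, but not with the block and without the doubted oil libraries (edgeR adjusted p = 0.083, 0.088 and 0.11). The difference between treatments in Tom+ and in Tom- cells can be read from the same numbers, since the interaction is also the CCl4 effect in Tom+ minus that in Tom-. Zone 3 and zone 1 genes had interactions too, with 7 of 8 higher and 6 of 8 lower in the blocked fit and 0 and 2 (Sds, -1.57, and Gls2, -1.39) without it, and without both doubted oil libraries 4 zone 3 genes were higher and 2 zone 1 genes lower. Of the 6 endothelial markers 6 were lower in the blocked interaction, 1 without the block, 5 by DESeq2 and 3 without both libraries. Of the 6 Kupffer and macrophage markers 3 were lower with the block and 0 without it (0 at an unadjusted p under 0.05, 0 by DESeq2). The part of zonation, endothelial cells or macrophages in the values of Ces2c and Ces3b was not tested.

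The remaining carboxylesterase genes of the mouse gave few calls. Of 10 others 7 were tested, and by edgeR none rose and 2 fell in CCl4 against oil in Tom+ (Ces4a and Ces2b). Both were near the limit of detection, Ces4a with 12 to 40 counts per library in Tom+ oil and 0 to 3 in Tom+ CCl4, and Ces2b with 17 to 32.8 and 0.9 to 7 counts, so no fold change is given. Ces2e, a further Ces2 gene, lay between 209.9 and 407 CPM and Ces2g between 43.1 and 70.7 CPM, and neither passed in any comparison without the block. Ces2d-ps had a log2 fold change of 1.65 in CCl4 against oil in Tom+ (edgeR adjusted p = 0.14), and of 1.78 with the replicate block (edgeR adjusted p = 0.027). When both doubted oil libraries were left out, 1 of the 7 tested rose and 2 fell in that comparison.

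Other lipases and ester or epoxide hydrolases were described as a list of 17 genes, all tested. With CCl4 2 of them rose in Tom- and 3 in Tom+, and none fell, with list medians of 0.07 and 0.10. Pnpla3, a lipid droplet lipase, rose by 3.79 in Tom- (edgeR adjusted p = 3.1e-04) and by 1.86 in Tom+ (edgeR adjusted p = 0.014), from means of 0.371 and 0.775 CPM with oil. Ephx1, the microsomal epoxide hydrolase, rose by 0.86 in Tom- (edgeR adjusted p = 0.036) and by 1.54 in Tom+ (edgeR adjusted p = 0.0037). Pon1, the serum paraoxonase, rose by 1.26 in Tom+ (edgeR adjusted p = 2.3e-04). Between Tom+ and Tom- none of the 17 passed by edgeR without the block in CCl4 (6 at an unadjusted p under 0.05, 0 by DESeq2) or in oil (4 and 0), and none passed in the interaction (7, and 1 higher and 1 lower by DESeq2). At that unadjusted p were 22.8% of all genes with CCl4, 7% in oil and 18.6% in the interaction. With the block Pnpla3 was lower in Tom+ than in Tom- with CCl4 (-0.83, edgeR adjusted p = 0.026), and in the interaction Pon1 was higher (0.77, edgeR adjusted p = 3.1e-04) and Pnpla3 lower (-1.93, edgeR adjusted p = 0.0071). Leaving out both doubted oil libraries, 1 of the 17 rose with CCl4 in Tom-, 3 rose in Tom+ and 1 was higher in the interaction.

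The genes of triglyceride synthesis and VLDL assembly, which use the lipid that Ces1d releases, made a list of 8, all tested. By edgeR without the block none passed both thresholds in any comparison, with or without both doubted oil libraries. At an unadjusted p under 0.05 there were 3 in Tom+ against Tom- with CCl4, 0 in oil and 1 in the interaction. The shares of all genes were 22.8%, 7% and 18.6%. In CCl4 against oil there were 3 in Tom- and 4 in Tom+, beside 31.5% and 24.4% of all genes. DESeq2 called 1 lower in each CCl4 against oil comparison, beside 1.78% of all genes in Tom- and 2.62% in Tom+. With the block across treatments, where the numbers were not taken as pairs, Mogat1 was lower in Tom- (-3.19, edgeR adjusted p = 0.027). Of 11 nuclear receptors and other regulators of carboxylesterase genes 2 rose in Tom+ against Tom- with CCl4, Ppara (0.80, edgeR adjusted p = 0.013) and Ahr (0.76, edgeR adjusted p = 0.026). Ppara and Ahr encode receptors for fatty acids and for aromatic compounds. No gene of the list passed in CCl4 against oil by edgeR without the block. There 4 in each fraction had an unadjusted p under 0.05, beside 31.5% of all genes in Tom- and 24.4% in Tom+. DESeq2 called 1 in Tom+ and 0 in Tom-. With the block across treatments Nr1i3, the xenobiotic receptor CAR, was higher in Tom+ (0.89, edgeR adjusted p = 0.0024). In the interaction none passed without the block (2 at an unadjusted p under 0.05, 2 by DESeq2), and with it Ahr (0.86, edgeR adjusted p = 5.1e-04), Nr1i3 (0.82, edgeR adjusted p = 0.0047) and Ppara (0.81, edgeR adjusted p = 3.5e-04) were higher. In the fit without both doubted oil libraries 1 regulator was higher in Tom+ against Tom- with CCl4, 1 in CCl4 against oil in Tom+ and 1 in the interaction, and 1 was lower in CCl4 against oil in Tom-.

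The gene most like each member was taken as the one with the highest Pearson r of log2 CPM over the 12 libraries, among 13048 tested genes outside the family with a mean of at least 1 CPM. It was Lrat for Ces1b (r = 0.98), Cd9 for Ces1c (0.99), Ephx1 for Ces1d (0.98), Cyp2d10 for Ces1e (0.96), Ugt2b36 for Ces1f (0.95), Slc16a7 for Ces1g (0.98), Cyp3a25 for Ces2a (0.95), Cyp1a2 for Ces2c (0.97), Pcx for Ces3a (0.95) and Gpt for Ces3b (0.98). Within the family the highest values were 0.97 for Ces1b with Ces1c and 0.96 for Ces1d with Ces1g. The 12 points share 4 groups of 3 libraries, so these values describe likeness over these libraries only. Lrat, one of the stellate cell markers, lay between 0.535 and 4.75 CPM, where Ces1b lay between 52.3 and 198 CPM.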

How the data were processed

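PolyA-selected, strand-specific libraries of sorted Tom+ and Tom- cells were sequenced, with 3 libraries in each of 4 groups. According to the submitters' processing notes, reads were trimmed with fastp (0.23.2), aligned to mm10 with HISAT2 (2.1.0) and tested with DESeq2 (1.42.1). The counting program, its strand setting and the annotation are not given in the sources used here. The table deposited by the authors holds estimated counts per gene that were not normalized, and in each library 30.4% to 32.9% of the values above 0 were not whole. It was taken as it stood, with 54723 of 54839 feature identifiers matched to a symbol.

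Counts were rounded and fitted with edgeR (4.0.16, R 4.3.3) by the robust quasi-likelihood test, with TMM scaling and filterByExpr, over all 12 libraries and 17121 genes, with a coefficient for each group. Genes were called at a Benjamini-Hochberg adjusted p under 0.05 and a log2 fold change beyond 0.75. The SE is the log2 fold change divided by the square root of F. Values in CPM are TMM-scaled and were used between groups. TPM was computed from the deposited gene lengths without TMM scaling. It was used between genes, and for shares and ratios within a library that were then compared between groups. The 2 scales can order groups differently. Mean Ces1c was 4695 TPM in Tom+ CCl4 and 4197 in Tom- CCl4, but 4229 and 4442 CPM. Tests are two-sided. The script was tested on simulated data. Sequences were read from GENCODE vM21 and RefSeq tables with Python (3.11.15) and Biopython (1.88).

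Same-numbered Tom- and Tom+ libraries of a treatment deviated together (r = 0.205, 0.231 and 0.318 with oil and 0.247, 0.187 and 0.401 with CCl4), so the numbers were treated as pairs on this evidence from the data. The deviations were taken from the means of the labelled groups. In oil pairs 1 and 2 both libraries had a similar reporter level, against the label of one of them. The part of this in the r of 0.205 and 0.231 was not tested. The labels do not say that a pair came from 1 mouse, nor that replicates came from separate mice, so p-values measure only the spread between these libraries. Alternatives were DESeq2 (1.42.0), RLE scaling, other filters, unrounded or truncated counts, the 6 libraries of a comparison alone, the replicate block and libraries left out. Named genes were the 10 members, Gusb, the reporter, at most 3 called genes of a list with the largest change in a comparison, and the gene most like each member. Ces2e, Ces2g, Ces2d-ps, Mogat1 and Nr1i3 were named after their values were seen, and the list counts without both doubted oil libraries were added after seeing the data. The members and lists were chosen with earlier results of these data known.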

Additional observations from a re-analysis of the deposited data

Results flagged for a closer look

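The signs of the pairs were read for the members only, and the share of all genes with a given pattern was not counted. For 3 members every same-numbered pair was higher in Tom+ than in Tom- with CCl4 and lower in Tom+ with oil. These were Ces1d, with an interaction of 0.49 on the log2 scale (edgeR adjusted p = 0.28), Ces1g, with 0.35 (edgeR adjusted p = 0.36), and Ces2c, with 1.45 (edgeR adjusted p = 0.41), none of which passed in the test of the difference itself without the replicate block. Oil pairs 1 and 2 each hold a library whose reporter level went against its label, and without both libraries the interactions were 0.66 for Ces1d (edgeR adjusted p = 0.28), 0.54 for Ces1g (edgeR adjusted p = 0.26) and 2.43 for Ces2c (edgeR adjusted p = 0.21).

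With the replicate block the interaction passed both thresholds for 2 members. It was 1.53 for Ces2c (edgeR adjusted p = 0.011), higher in Tom+ in 3 of 3 pairs with CCl4 and 0 of 3 with oil. It was -1.005 for Ces3b (edgeR adjusted p = 3.5e-04), higher in Tom+ in 0 of 3 pairs with CCl4 and 2 of 3 with oil.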

How the results depend on the processing

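Ces1b and Ces1c in both CCl4 against oil comparisons, and Ces1d and Ces3b in Tom+, were called under every alternative run, and no called value changed its sign. Among values that were not called, those near 0 changed sign under some alternatives (1 member in Tom+ against Tom- with CCl4, 2 in oil and 4 in the interaction). Without both doubted oil libraries 6 members were called in Tom+ CCl4 against oil in place of 4, Ces1g and Ces2c being added, where 2.09% of all genes were higher and 1.42% lower. DESeq2 called 5, Ces2c being added, where 3.51% were higher and 2.62% lower. In Tom+ against Tom- with CCl4, where 0 members were called, 2 were called with the replicate block, 2 with the block and without both doubted oil libraries (a fit chosen after seeing the data) and 1 at the adjusted p alone. In oil, where 0 were called, 1 was called with the block and without both libraries, and that call (Ces2c) rests on oil pair 3. In the interaction, where 0 were called, 2 were called with the block and 1 with the block and without both libraries. Leaving out single libraries kept these counts at 0. The block changed no other call in these 3 comparisons.

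For oil and CCl4 libraries with the same number r was 0.00898, 0.0483 and 0.0368 in Tom- and 0.0899, 0.0182 and 0.226 in Tom+. The numbers were not taken as pairs across treatments, although the value of 0.226 lay within the range of the Tom- and Tom+ pairs. With the block across treatments 3 members were called in Tom-, where 7.98% of all genes were higher and 1.92% lower, and 5 in Tom+, where 3.77% were higher and 2.77% lower, Ces3b (-0.82) and Ces2c (1.99) being added. Unrounded counts, truncated counts and RLE scaling moved no log2 value by more than 0.001, 0.0011 and 0.0077. The 3 libraries of a group limit what could be detected. The division of shared reads was not tested for any member, among them Ces2c, Ces2a, Ces3a, Ces3b, Ces1b and Ces1c.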
